A study of Canis lupus familiaris with 20 samples.

Results

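Among dog osteosarcoma cell lines, a set of 60 genes was read far more in OS-2 cells than in the cells of 3 other lines, and the RNA of these genes was followed into the exosomes of OS-2 and of the other lines. The 60 were chosen from 24579 gene identifiers by their cell libraries alone. A gene needed at least 10 CPM (the count x 1000000 / the library total) in both OS-2 cell libraries, which 8540 genes had. These were ordered by a score, the lower OS-2 value divided by the highest of the 6 other cell libraries plus 0.5 CPM, and the 60 highest were kept. The exosome values did not enter this rule, so the exosome libraries serve as the readout. The members were, however, chosen with earlier results of these data known. All cell values of the members are given as a description. The files do not pair identifiers with gene names, and in the RefSeq gene table used here 0 rows carried an Ensembl identifier to match them by. Members are therefore given by Ensembl identifier or by their rank in the score. Neither their functions nor the osteosarcoma markers of the lines could be looked up.

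Exosomes are small vesicles that cells form in endosomal compartments and release, and they enclose RNA and protein of the cell that made them. Tumour exosomes are studied as carriers of tumour RNA that can be collected from a fluid without a biopsy. RNA that only 1 cell source makes can act as a tracer, since its presence in a vesicle preparation marks that source. Precipitation reagents such as ExoQuick also bring down RNA that is outside vesicles, so a preparation can hold both.

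The groups used were cells of the lines OSCA-8, OSCA-78, OS-2 and OS-1 (2 libraries each), and exosomes from culture supernatants of 5 lines, with 4 libraries for OS-1 and 2 each for OSCA-8, OSCA-78, OSCA-32 and OS-2. The labels name a line for each library and no treatment, and for OSCA-32 no cell library was analysed here. Total RNA was sequenced from both fractions, and 1 protocol text, naming ExoQuick and a low-input stranded kit, stands for all libraries. Separate cultures are not mentioned for the replicates, so the p-values cover the variation among these libraries alone, and it may be of technical origin.

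Totals ran from 7728553 to 13301840 counts in cell libraries and from 259078 to 481487 in exosome libraries. A count of 0 in an exosome library allowed up to 6.23 to 11.6 CPM (3 counts of the total, counting error only). The 2 OS-2 exosome libraries stood apart. In these, 7 genes above 1% of at least 1 exosome library took 55.6% and 60.9% of the counts, against 0.750% to 27.4% in the other exosome libraries. None of the 7 is a member, but they lower the CPM of every other gene in OS-2 exosomes. Values are therefore given on 3 scales. These are plain CPM, CPM of the counts left without the 7 genes, and CPM scaled by TMM, edgeR's trimmed mean of ratios, whose factors were 0.409 and 0.350 in OS-2 exosomes and 0.942 to 1.38 in the others.

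In the cells, the members ranged from 10.6 to 9447 CPM in OS-2 (mean of 2 libraries, median 102 CPM), and their highest level in another line ran from 0.150 to 67.9 CPM. Their scores fell from 144 to 6.15. At the edge of the rule, ranks 59 and 60 scored 6.16 and 6.15, and ranks 61 and 62, just outside, scored 5.99 and 5.94. Summed over the 60 members, OS-2 cells gave 17363 and 29491 CPM in replicates A and B. The other 6 cell libraries gave 237 to 369 CPM. A single gene, ENSCAFG00000018146 (rank 4), made up 41.0% and 39.9% of the OS-2 cell sums, with 7118 and 11777 CPM.

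The heat map of the 60 members shows this block in the OS-2 cell columns, and beside it the exosome columns, where most members have counts in every line.

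**Figure D1:**
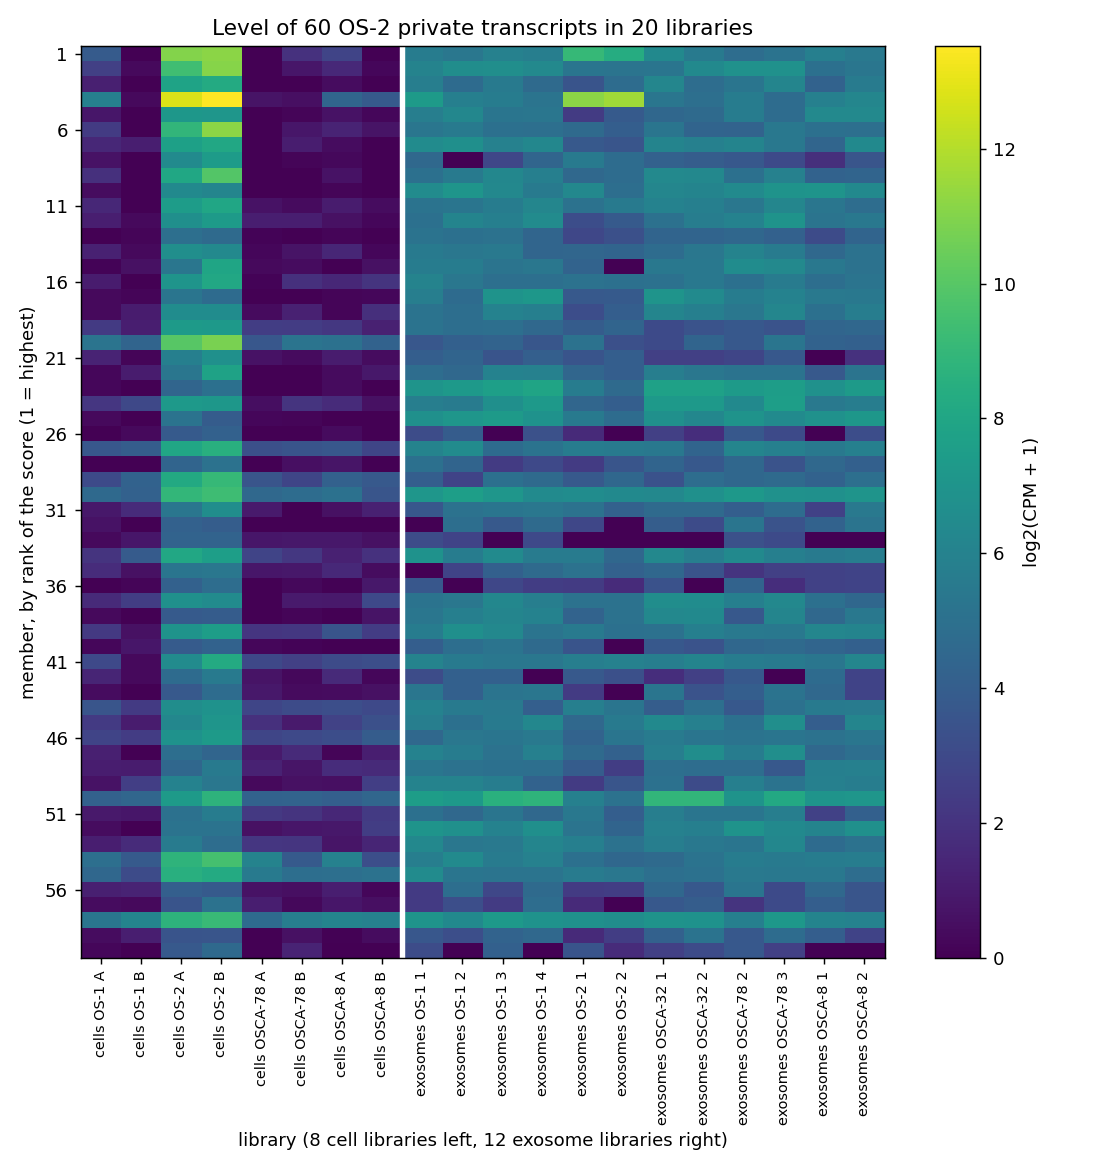
Each row is 1 of the 60 members in order of rank, each column 1 of 20 libraries, and the colour is log2(CPM + 1). The OS-2 cell columns are bright and other cell columns dark, whereas most members show a middle level in all 12 exosome columns, and ranks 1 and 4 are brightest in the OS-2 exosome libraries.

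OS-2 replicate B was higher than A for 42 of the 60 members (median ratio 1.37), while the median ratio over the 8540 genes was 0.995. The ratio exceeded 2 for 12 members, and for 3.14% of the 8540 genes, and reached 6.51. In these bulk samples, fewer cells that express a gene and less RNA per cell cannot be told apart. A set chosen on the libraries of 1 letter can be read in those of the other. When 60 genes were chosen on letter A alone, 33 of them were members, and 52 of the 60 were higher in OS-2 replicate B than in any other B library. Chosen on letter B alone, 42 were members, and 59 of the 60 were higher in OS-2 replicate A than in any other A library. The letter A set summed to 29077 CPM in OS-2 replicate B and to 1477 in OS-1, 414 in OSCA-8 and 247 in OSCA-78. The letter B set summed to 16015 CPM in OS-2 replicate A and to 286 to 356 in the others. The share of all genes was not determined, and the main rule used these same libraries, so this is a description.

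The trace of these genes in other cells was uneven. In OS-1 cell replicate A, each of the 12 highest ranked members had counts, at 0.296% to 0.891% of its mean OS-2 cell level (median 0.513%). In OSCA-8 cell replicate A all 12 had counts too, at 0.10% to 0.481% (median 0.184%). Replicate B of OS-1 and of OSCA-8 lacked a count for 8 and 6 of the 12. Replicates A and B of OSCA-78 lacked one for 9 and 3. The source of these low counts was not tested.

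In exosomes, summed plain CPM was higher in OS-2 than in any other library. The 60 members made up 4447 CPM in replicate 1 of the OS-2 exosomes, with 4261 to 4639 as its 95% interval (Clopper-Pearson, counting error only), and 4723 CPM in replicate 2 (4526 to 4927). The other 10 exosome libraries gave 2193 to 3359 CPM. The line means were 4585 ± 196 CPM in OS-2, 3171 ± 183 in OS-1, 2402 ± 295 in OSCA-8, 3046 ± 442 in OSCA-78 and 3174 ± 113 in OSCA-32 (SD, n = 2, and n = 4 in OS-1). The ratio of OS-2 exosomes to the mean of the other 4 lines was 1.56 on plain CPM, 3.34 on the counts left without the 7 genes and 4.84 with TMM scaling, and no test is given because the members were chosen with earlier results known.

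On plain CPM that excess came from 2 genes. ENSCAFG00000018146 made up 52.7% and 66.2% of the OS-2 exosome sums, and ENSCAFG00000011247 (rank 1) 11.8% and 6.91%. The remaining 58 members gave 1578 CPM (1468 to 1695) and 1272 CPM (1171 to 1380) in OS-2 exosomes and 2078 to 3297 CPM in the other libraries, so that OS-2 lay below all of them. The ratio of OS-2 to the other lines for these 58 was 0.501 on plain CPM, 1.07 on the counts left without the 7 genes and 1.55 with TMM scaling. On the counts left, OS-2 exosomes gave 3556 and 3256 CPM and the others 2862 to 3504, which overlap. With TMM scaling, they gave 3942 and 3701 against 2305 to 2705, which do not. The direction of the 58-member sum therefore changed with the scale.

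**Figure D2:**
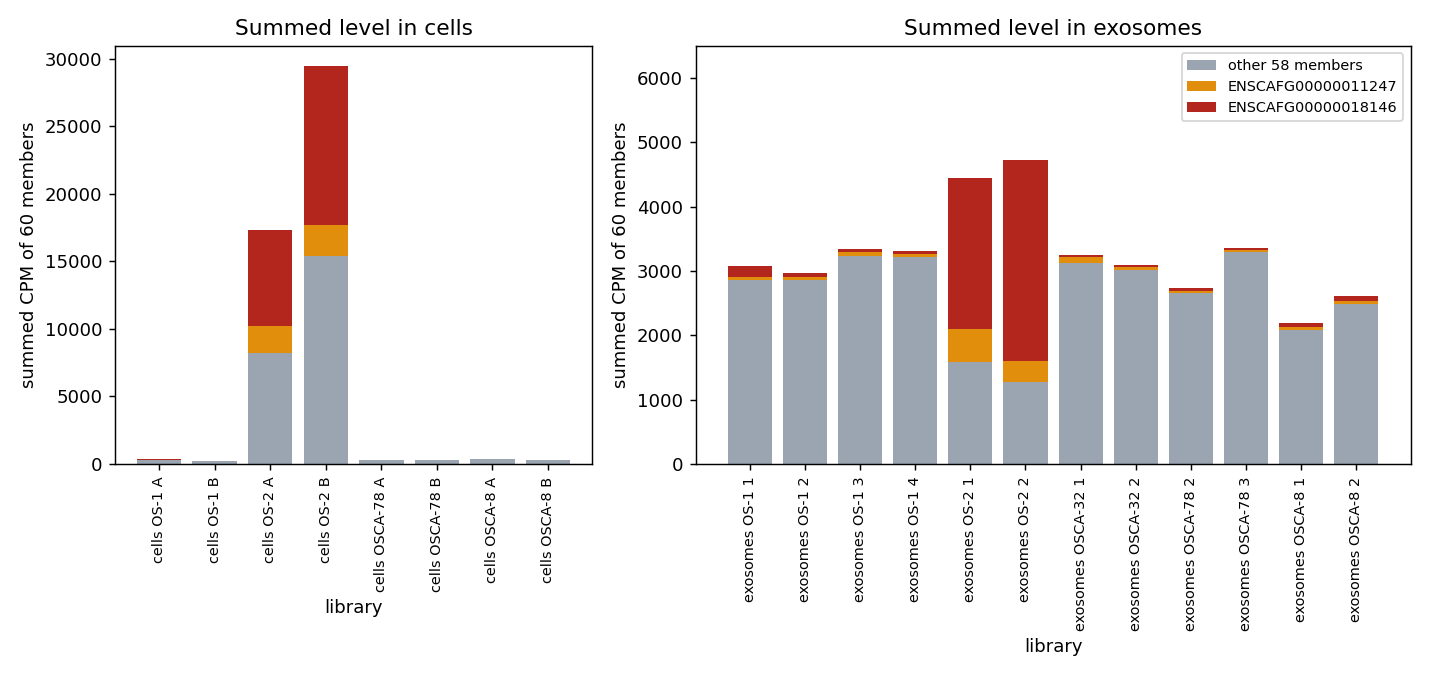
Bars give the CPM summed over the 60 members in each cell library (left) and each exosome library (right), with separate linear axes, split into ENSCAFG00000018146, ENSCAFG00000011247 and the remaining 58 members. In OS-2 exosomes the 58 members sum to 1578 and 1272 CPM, below the 2078 to 3297 CPM of the other exosome libraries.

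ENSCAFG00000018146 stood at 2345 and 3125 CPM in OS-2 exosomes (1129 and 1417 counts). In OS-1 exosomes it stood at 166, 56.3, 50.2 and 36.3 CPM. OSCA-8 gave 58.8 and 73.9 CPM, OSCA-78 gave 49.7 and 27.0, and OSCA-32 gave 39.0 and 29.6. Both OS-2 libraries were above all others, and plain CPM was 50.6 times the mean of the other lines. The log2 fold change in the fit over 12 exosome libraries was 7.37 (SE 0.49, edgeR quasi-likelihood test with TMM scaling, Benjamini-Hochberg adjusted p = 2.91e-12). With scaling to total counts it was 5.71.

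ENSCAFG00000011247 stood at 2045 and 2302 CPM in OS-2 cells and at 523 and 326 CPM in OS-2 exosomes. Other exosome libraries ranged from 28.0 to 85.4 CPM with a median of 47.3, so the groups did not overlap. In the cells of the other lines it had no count in 3 of 6 libraries and at most 13.7 CPM. The fit gave 4.75 as its log2 fold change between exosomes (SE 0.24, adjusted p = 1.18e-14 by edgeR), and 3.09 with total counts.

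ENSCAFG00000011740 (rank 2) was as strongly confined to OS-2 among the cell libraries, with 674 and 2108 CPM there and 0 to 4.85 CPM in other lines. Its exosome values did not follow. OS-2 exosomes gave 37.4 and 35.3 CPM. OSCA-8 gave 30.7 and 38.3, OSCA-78 gave 112 and 115, OSCA-32 gave 36.6 and 84.0, and OS-1 gave 65.6, 98.5, 102 and 81.7. The OS-2 values lie within that range, and the log2 fold change of 0.73 (SE 0.36) missed the threshold (edgeR adjusted p = 0.161). With total counts it turned to -0.94 (adjusted p = 0.0305).

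**Figure D3:**
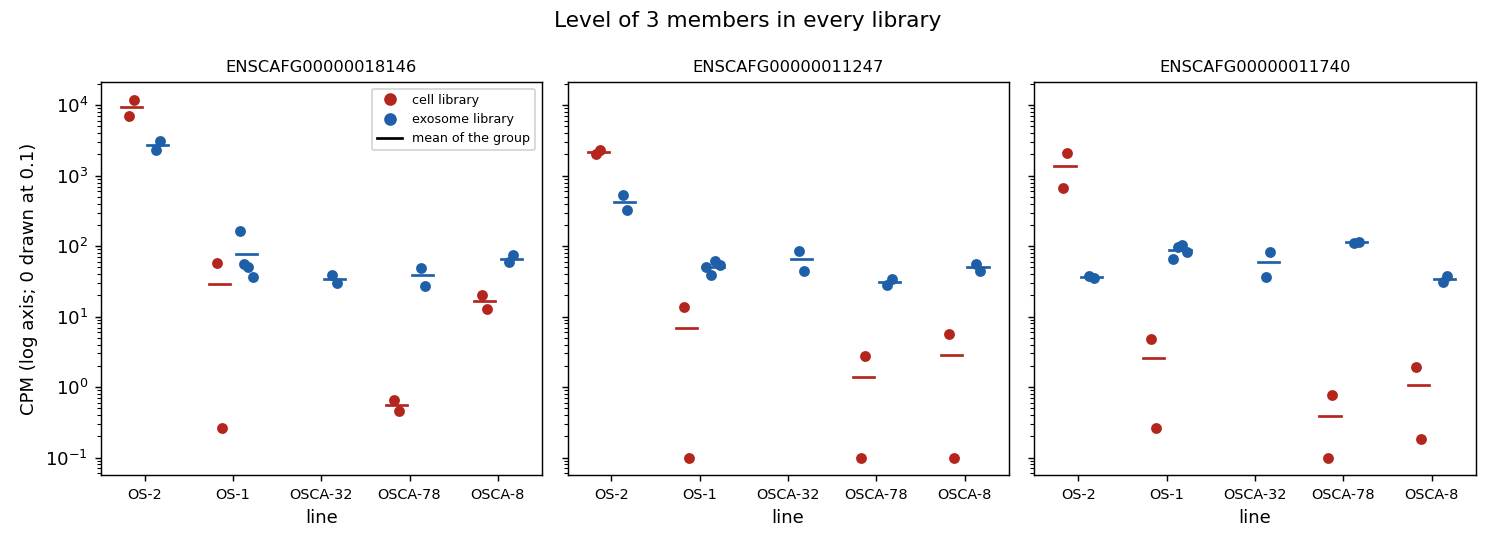
Level of 3 members by line on a log axis in CPM, with 1 point per cell library (red) and exosome library (blue) and a bar at each group mean; a value of 0 is drawn at 0.1. Red points of OS-2 are high in each panel, and blue points of OS-2 are above the other lines for ENSCAFG00000018146 and ENSCAFG00000011247 but at 37.4 and 35.3 CPM within their range for ENSCAFG00000011740.

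Tested gene by gene, 18 members were higher in OS-2 exosomes than in those of the other lines. After the filter on low counts (about 24.6 CPM in 2 or more exosome libraries), 52 of the 60 members and 15083 genes were tested. OS-2 exosomes were compared with the mean of the other 4 lines. Of the 52, 18 were higher (34.6%) and 0 lower (edgeR, adjusted p under 0.05). By the same test 13.2% of all tested genes were higher and 5.83% lower. The median log2 fold change was 0.76 over the tested members and -0.21 over all tested genes, a gap of 0.97. Over the 7720 tested genes with at least 10 CPM in both OS-2 cell libraries, as the members have, it was 0.39. Of these, 25.3% were higher and 2.09% lower. Of the 18, 3 (ranks 8, 20 and 35) passed the filter only with the OS-2 libraries included, so their direction was bound to it. Without the filter, 17 of 60 members were higher and 1 lower, where 8.79% and 4.76% of 24079 genes were. With total counts, 3 of the 52 were higher and 20 lower, where 3.92% and 69.5% of genes were. Without OS-2 exosome replicate 1 the count of higher members fell to 10 of 55 (8.18% of genes), and without replicate 2 to 11 of 55 (8.25%).

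Besides ENSCAFG00000018146 and ENSCAFG00000011247, the log2 fold changes of the 16 other called members ran from 1.20 to 3.34 with a median of 1.66. Among them, ranks 8, 35 and 20, at 3.34, 3.20 and 1.88, are bound to the filter as said above. The highest of the rest was 2.18, at rank 44. The 34 tested members that were not called ran from -1.76 to 1.33 with a median of -0.04. Rank did not sort them, since 4 of the 12 highest ranked members were called and 9 of the first 30. Both OS-2 exosome libraries lay above all 10 others for 20 of the 52 members on TMM-scaled CPM, as they did for 14.4% of genes. Both lay below all others for 0 of the 52, as they did for 12.3% of genes. On plain CPM 3 members lay above (3.25% of genes) and 13 below (54% of genes).

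Called in all 20 settings (the one reported and 19 alternatives) were the members at ranks 1, 4 and 8. Rank 8 passed the filter only with the OS-2 libraries included, so its repeated calls are no sign of stability and its values are a description. It stood at 88.2 and 172 CPM in OS-2 cells and at 45.7 and 26.5 CPM in OS-2 exosomes, which is 34 counts in all. Its level in the other exosome libraries ran from 0 to 23.2 CPM with a median of 11.7. The groups did not overlap on plain CPM.

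The share of genes called higher rose with the level in OS-2 cells, both among members and among all genes. Genes with at least 10 CPM in both OS-2 cell libraries were split by their mean OS-2 cell level, at limits chosen after seeing the data. At 1000 CPM or more, 3 of 5 tested members were higher, and 73.9% of the 92 tested genes. From 100 to 1000 CPM, 11 of 25 members were higher, and 54.7% of 2194 genes. Under 100 CPM, 4 of 22 were higher, and 12.6% of 5434 genes. The calls at ranks 20, 8 and 35, which fall in these ranges in that order, are bound to the filter as said above. Median log2 fold changes in these ranges were 1.88, 1.10 and -0.04 for members and 2.78, 1.22 and 0.14 for all genes of the range. The 1.88 is the value of rank 20 itself. Over all 7720 such genes 25.3% were higher and 2.09% lower. Whether members differ from other genes of the same cell level was not tested. Across the 52 members, OS-2 cell level and exosome log2 fold change had a Pearson correlation of 0.59 and a Spearman correlation of 0.47 (0.38 and 0.40 without the 2 leading genes). Across the 7720 genes Spearman's value was 0.48. These are descriptions across genes that share the same libraries.

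**Figure D4:**
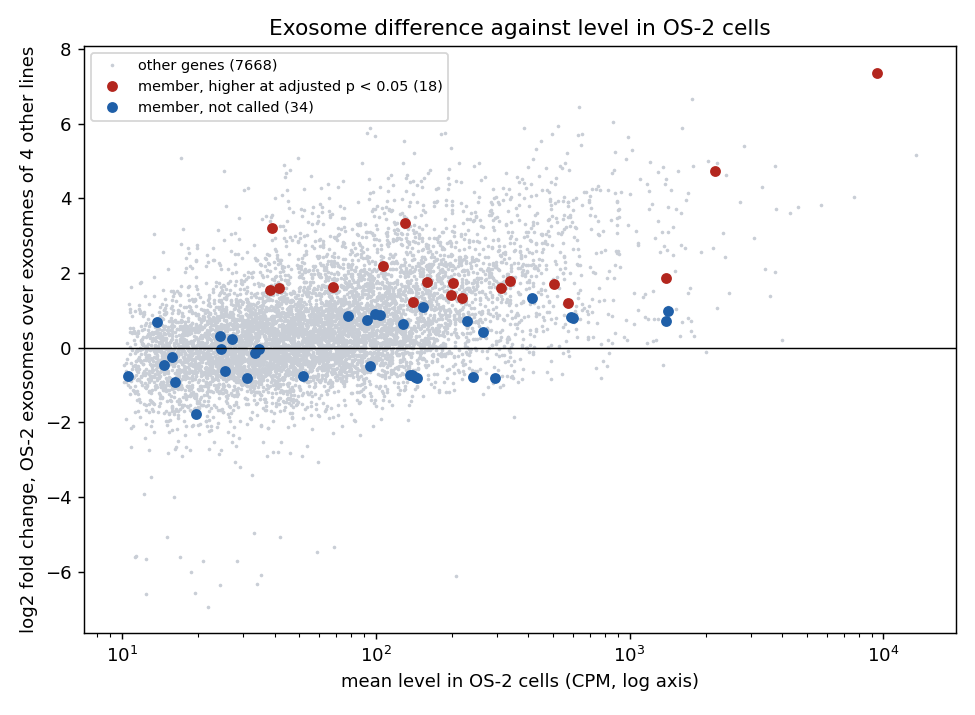
Each point is a gene with at least 10 CPM in both OS-2 cell libraries, placed by its mean OS-2 cell CPM (log axis) and its log2 fold change between OS-2 exosomes and exosomes of 4 other lines (TMM scaling). The 18 members called higher (red) and 34 not called (blue) lie among the 7668 other genes (grey), with ENSCAFG00000018146 at the upper right.

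With no cell library, OSCA-32 gave no value to the rule that chose the members. Its exosomes gave 3254 and 3094 CPM summed over the 60 members, within the range of the other 3 lines. Against OSCA-32 alone, 16 of 52 members were higher in OS-2 exosomes and 1 was lower, where 11.9% and 7.37% of all tested genes were (edgeR, adjusted p under 0.05). Of the genes with the OS-2 cell minimum, 22.7% were higher and 3.06% lower. With total counts 2 members were higher and 19 lower, where 3.82% and 64.3% of genes were. This contrast shares the OS-2 libraries with the one above, and 13 members were called higher in both. The 16 and the 13 include ranks 8 and 20. These passed the filter only with the OS-2 libraries included, so their direction was bound to it. The count of higher members fell to 5 and 6 of 55 without OSCA-32 exosome replicate 1 or 2 (6.78% of genes in each) and to 9 of 55 without OS-2 replicate 1 (7.74%). ENSCAFG00000018146 had a log2 fold change of 8.11 and ENSCAFG00000011247 one of 4.47 (edgeR adjusted p = 5.13e-07 and 8.89e-09). The member that was lower, at rank 50, stood at 58.2 and 33.1 CPM in OS-2 exosomes and at 478 and 484 CPM in OSCA-32 (-1.62 on the log2 scale, adjusted p = 0.00844 by edgeR). This gene also reached 387 and 449 CPM in OS-1 exosome replicates 3 and 4, against 185 and 152 CPM in replicates 1 and 2, although it had only 17.4 and 20.8 CPM in OS-1 cells.

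Most members had counts in the exosomes of every other line, including the 3 whose cells held little of them and OSCA-32, whose cells were not analysed here. Of all 24579 genes, 24079 had a count in at least 1 exosome library, and their share in each library was not determined. Whether members differ from other genes in detection was not tested. Between 56 and 60 of the 60 members had at least 1 count in each exosome library of another line, against 59 and 53 in OS-2 replicates 1 and 2. Thinned to the smallest exosome total of 259078 counts, the mean number was 55.0 to 59.4 in the other lines and 56.0 and 51.5 in OS-2. With at least 3 counts required, it was 51 to 57 in the other lines and 50 and 48 in OS-2. In OS-1, the members summed to 287 CPM in cells and 3171 CPM in exosomes, an 11.03-fold difference. It was 11.6-fold in OSCA-78 and 7.496-fold in OSCA-8. The rule kept the members low in those cells, so these ratios are a description. At 1 count OS-2 replicate 1 lay within the range of the others and replicate 2 below it, and at 3 counts both lay below all of them. These totals, thinned or not, include the 7 genes. They took 55.6% and 60.9% of the counts in OS-2 exosomes and 0.750% to 27.4% elsewhere. At an equal total OS-2 therefore had fewer counts for all other genes.

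A member with a high level there is the gene at rank 23. Its mean over exosomes of the other lines was 177 CPM, where the median of the 60 members was 43.2 CPM. It stood at 20.1 and 30.9 CPM in OS-2 cells and at no more than 0.301 CPM in any other cell library, with no count in 4 of the 6. Its exosome levels were 49.8 and 24.3 CPM in OS-2 and 115 to 234 CPM elsewhere (median 176). Every other exosome library was above both OS-2 libraries on plain CPM, as was so for 54% of tested genes. With TMM scaling the gene had -0.62 on the log2 scale (SE 0.31, adjusted p = 0.172 by edgeR).

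Within OS-2 and on plain CPM, the members took a smaller part of the exosome counts than of the cell counts. Their summed CPM in exosomes was 0.196 of that in cells, and 0.121 for the 58. On the counts left without the 7 genes, these ratios were 0.471 and 0.288. Over all 8540 genes with the cell minimum the summed ratio was 0.766 on plain CPM. The 7 genes were not taken out of that sum. They took 55.6% and 60.9% of the OS-2 exosome counts, so 0.766 is no like measure for the members. By gene, the median ratio of exosome to cell CPM was 0.194 for members and 0.382 for the 8540 genes. It was under 0.1 for 14 of 60 members and for 6.03% of the 8540. The choice of members for high OS-2 cell values favours a low ratio, so this is a description with no test. The summed ratio was 0.155 against cell replicate B alone and 0.264 against replicate A alone.

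The ratio was spread widely among members with the highest cell levels. It was 0.289 for ENSCAFG00000018146 and 0.195 for ENSCAFG00000011247. For ENSCAFG00000011740, at 1391 ± 1014 CPM in OS-2 cells (SD, n = 2), it was 0.0261, a 38.3-fold lower level in exosomes. The genes at ranks 6 and 20, at 485 and 2350 CPM and at 1017 and 1779 CPM in OS-2 cells, had ratios of 0.0142 and 0.0150. At rank 6, OS-2 exosomes gave 24.9 and 15.4 CPM and the others 18.7 to 45.0, and the gene was not called (log2 fold change 0.99, edgeR adjusted p = 0.152). At rank 20 they gave 33.2 and 8.82 CPM, within the 7.32 to 36.8 of the others on plain CPM, and its call, counted among the 18, is bound to the filter as said above. At the other end, 4 members had a ratio above 1, up to 1.88, and all 4 were under 100 CPM in OS-2 cells. ENSCAFG00000029403 (rank 33) was the 1 member with no count in either OS-2 exosome library. With 18.7 ± 0.174 CPM in OS-2 cells it was at least 5.82-fold lower in exosomes, taking 3 counts over the group as the limit, and at least 2.44-fold lower on the counts left without the 7 genes. It had 13 counts over 5 of the other 10 exosome libraries.

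Levels of members within OS-2 exosomes were alike in both replicates (Spearman 0.82 over 60 members). Over the 58 members, the OS-2 exosome level had a Spearman correlation of 0.63 with the mean level in exosomes of the other lines and of 0.57 with the level in OS-2 cells. The level in other lines' exosomes had one of 0.39 with the level in OS-2 cells. These values describe genes that share libraries and preparation.

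The same rule applied to the other lines gave far less private sets. The gene at rank 60 scored 1.11 in OS-1, 1.72 in OSCA-78 and 1.32 in OSCA-8, and 0 genes of these lines reached the 6.15 of rank 60 in OS-2. Their first 60 genes stood 1.20, 1.55 and 1.71 times higher in exosomes of their own line than in those of the other 4 lines on plain CPM, and 0.991, 1.44 and 1.90 times on the counts left without the 7 genes. For OS-2 these ratios were 1.56 and 3.34. Without ENSCAFG00000018146 and ENSCAFG00000011247 they were 0.501 and 1.07, and no such omission is given for the other lines. The differences between lines were not tested.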

How the data were processed

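Values are gene counts as deposited by the authors, whole numbers in 1 table, analysed here for 20 libraries. Per the submitters' processing notes, tools named are kallisto 0.43.0, Trimmomatic 0.33.0 and FastQC 0.11.5, and GRCm38.p5 stands beside CanFam3.1 as a build, with no role given. Which program counted, with which strand setting and treatment of shared reads, is not given in the sources used here. Overlapping or near-identical genes are therefore uncertain. There was 1 column that matched no sample label, and it was not used.

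Groups came from the sample titles. The members and lists were chosen with earlier results of these data known. Exosome libraries were compared in 1 fit of 12 libraries with a coefficient per line, by edgeR's quasi-likelihood test (edgeR 4.0.16, R 4.3.3) with TMM scaling, filterByExpr, robust dispersions and Benjamini-Hochberg adjustment over all genes tested. Sums, ratios and detection carry no test. Members named were those called higher with the most OS-2 exosome counts, those with no OS-2 exosome count and those of the highest score, 2 of each where there were as many. Ranks 6, 8, 20, 23, 35 and 50 and the limits on OS-2 cell level were chosen after their values were seen. Marker lists set out for the analysis could not be used without gene names. Replicate pairs differed beyond sampling noise (chi-square per degree of freedom at least 1.83). Alternatives were other scalings, DESeq2 1.42.0, no filter, the replicate block, other rules for the members and leaving out each library.

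On simulated counts with only OS-2 exosomes changed (15083 genes, exosome OS-2 against other lines), the fit recovered 3%, 87% and 100% of genes raised by a fold of 2, 4 and 16, and 1%, 35% and 80% of those lowered. Few genes were changed there, and all simulated libraries otherwise shared 1 composition. These shares therefore do not carry over to the data.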

Additional observations from a re-analysis of the deposited data

Results flagged for a closer look

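In the 4 OS-1 exosome libraries, replicate 1 stood apart from the others in ENSCAFG00000018146, with 166 CPM (43 counts) against 36.3 to 56.3 CPM. The gap was 0.846 of the range. It was 1 of 6 measures examined this way, and chance flags about 1 in 20 groups for a single measure. In OS-1 cells the same gene had 57.6 CPM in replicate A and 0.259 CPM in replicate B. The source of these counts was not tested.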

How the results depend on the processing

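The count of 18 members higher in OS-2 exosomes than in the other lines was 17 to 19 with RLE or upper quartile scaling, DESeq2, no filter, the replicate block (18) or without the 7 genes (8.79% to 14.6% of all genes), and the last and upper quartile scaling were chosen after seeing the data. It was 3 with total counts, where 20 were lower, and 10 to 19 when each exosome library was left out, with 10 without OS-2 replicate 1 and 11 without OS-2 replicate 2. Against OSCA-32, 2 were higher and 19 lower with total counts, 20 higher and 2 lower with the replicate block, and 5 to 18 higher when a library was left out. Members lower numbered 0 to 1 and, against OSCA-32, 0 to 2 over these omissions, and 1 and 2 without the filter, while upper quartile scaling and leaving out the 7 genes each gave 2 against OSCA-32. In 17 pairs of same-numbered exosome libraries the deviations from line means correlated at -0.05 to 0.32. The 2 values above 0.1 were both between OS-1 and OSCA-78. In a line with 2 libraries the deviations mirror each other, so some pairs repeat a value and the 17 are not separate checks. The numbers were not taken to pair the samples, and whether they do was not tested. ENSCAFG00000011740 had a log2 fold change of -0.94 against the other lines and -0.78 against OSCA-32 with total counts, and 1.11 against OSCA-32 with the block (edgeR adjusted p = 0.0481).

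With other rules for the members, 9 of 27 tested (of 30) and 37 of 107 tested (of 120) were higher against the other lines. Against OSCA-32, 9 and 32 were higher, and 0 of the 27 were lower in either comparison. In the same fit 13.2% and 11.9% of all tested genes were higher. With at least 50 CPM in OS-2 cells 26 of 58 tested were higher against the other lines and 28 of 58 against OSCA-32. A higher OS-2 cell level went with more calls among all genes too. With 2 CPM added in the score 20 of 54 were higher against the other lines and 18 of 54 against OSCA-32. With the rule on letter A or letter B alone, 15 of 55 and 13 of 51 tested were higher against the other lines. In that comparison 25.3% of genes with at least 10 CPM in both OS-2 cell libraries were higher. Against OSCA-32, 12 of 55 and 13 of 51 were higher. With letter A or B alone, 1 of 55 and 1 of 51 was lower against the other lines, where 5.83% of genes were. The summed ratio of 1.56 became 2.41 with 30 members, 1.32 with 120, 1.93 with at least 50 CPM, 1.67 and 1.48 with letter A or B alone, and 3.34 on the counts left without the 7 genes. It reversed to 0.639 without ENSCAFG00000018146 and to 0.501 without both leading genes, and was 1.07 without both on the counts left. Leaving out 1 exosome library gave 1.51 to 1.60. The ratio of OS-2 exosomes to OS-2 cells of 0.196 became 0.471 on the counts left, 0.132 and 0.121 without 1 and both leading genes, 0.288 without both on the counts left, and 0.155 to 0.264 without 1 OS-2 library. Members detected in OS-2 exosomes were 93.3% of 60, and 81.7% at 3 counts or more. Omitting both leading genes was chosen after seeing the data. On simulated counts of this design, 3% of genes raised by a fold of 2 were called. Few genes were changed there, while 13.2% of genes were called higher in the data. Differences of that size can be missed, at a share that the simulation does not give. The lower bound of ENSCAFG00000029403 fell from 5.82 to 2.44 on the counts left, a setting added after seeing the data.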
